A study of Mus musculus with 9 samples.

Results

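The genes described here belong to the integrated stress response and the unfolded protein response, 37 genes given as a list of symbols and measured in cultured mouse NK cells. A gene was represented by its brightest probe set among those the platform annotation assigned to it alone. That gave values for 36 of the 37 genes, out of 22180 genes with a probe set of their own, and Pycr1, an enzyme of proline synthesis, had none. All 36 read at or above the array median on all 9 arrays, so all were among the 12578 genes that entered the tests.

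The integrated stress response starts when kinases that sense amino acid shortage, unfolded protein in the endoplasmic reticulum (ER), viral RNA or haem shortage phosphorylate the initiation factor eIF2. General translation then falls while the mRNA of the transcription factor ATF4 is translated more, and ATF4 with its C/EBP partners switches on genes for amino acid synthesis, amino acid uptake and feedback on the response. The unfolded protein response adds the sensors IRE1 and ATF6, which act through XBP1 and cleaved ATF6 on ER chaperones and on the degradation of misfolded ER proteins. In activated lymphocytes several of the same amino acid genes are also driven by growth signals.

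The list was read in 5 groups. The stress transcription factors were Atf3, Atf4, Atf5, Ddit3, Cebpb, Cebpg and Nupr1 (7 genes). The feedback and effector genes were Trib3, Ppp1r15a, Chac1, Ddit4, Sesn2, Eif4ebp1, Vldlr and Stc2 (8 genes). ATF4-type amino acid genes comprised 11 enzymes, of which 10 were measured, and 6 transporters. The ER genes were Herpud1, Hspa5, Sdf2l1, Xbp1 and Dnajb9 (5 genes).

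Splenic NK cells of female C57BL/6N mice were compared between wild type (WT), Tyk2-/- and Tyk2K923E, which carry no TYK2 or a kinase-inactive TYK2, a JAK-family kinase that signals for type I interferon and IL-12 receptors. Cells enriched with DX5 magnetic beads, each pool drawn from 3 to 4 animals, were expanded for 7 days in 5000 U/ml recombinant human IL-2, so every group, controls included, was IL-2 activated. Each of 3 separate experiments gave 1 array per genotype, 9 arrays in all, and the pool rather than the mouse is the replicate. Values are log2 RMA levels, 1 unit being a 2-fold difference, and a p-value measures the spread between arrays.

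Array medians lay between 5.42 and 5.48. A principal component analysis placed 61.0% of the variance on its leading axis, which set the 3 arrays of experiment 1 (scores of at least 0.265) apart from the other 6 (at most -0.174). The Tyk2 probe set read 8.68, 8.56 and 8.63 in WT and 9.55, 8.63 and 8.85 in Tyk2-/-, in the order of experiments 1, 2 and 3, so it was not lower in the libraries labelled Tyk2-/-. The deleted segment and the probes' positions were not given in the sources used here, and the reading does not check the labels. All 10 NK markers lay at or above the array median on every array. So did 9 of 10 T-cell markers, whereas 6 of 8 measured B-cell and plasma-cell markers, among them Cd79a and Ms4a1, lay below it on every array.

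Experiment 1 was compared with experiments 2 and 3 to see how far the stress genes follow the difference between experiments. The labels do not say what set experiment 1 apart, such as date, donor mice, RNA or scan. In experiment 1, 11 of 15 transcription factors and effectors of the stress response were higher, led by Ddit3, Nupr1, Atf5, Ppp1r15a and Trib3. Atf4 itself, Atf3, Chac1 and Sesn2 were not called, nor were 11 of 16 amino acid genes. Dnajb9 rose among the ER genes, Sdf2l1 fell, and Hspa5, Herpud1 and Xbp1 were not called. In the limma fit with genotype as a term, 14 of 36 genes were called higher in experiment 1 and 4 lower at an adjusted p under 0.05. Over all genes tested, 16.2% were called higher and 19.9% lower, so calls were common everywhere. The contrast sets 1 experiment against 2, the split was proposed with results of these data known, and its p-values cover arrays and not experiments. In bulk RNA a change in the share of cells expressing a gene and a change in RNA per cell cannot be told apart.

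**Figure D1:**
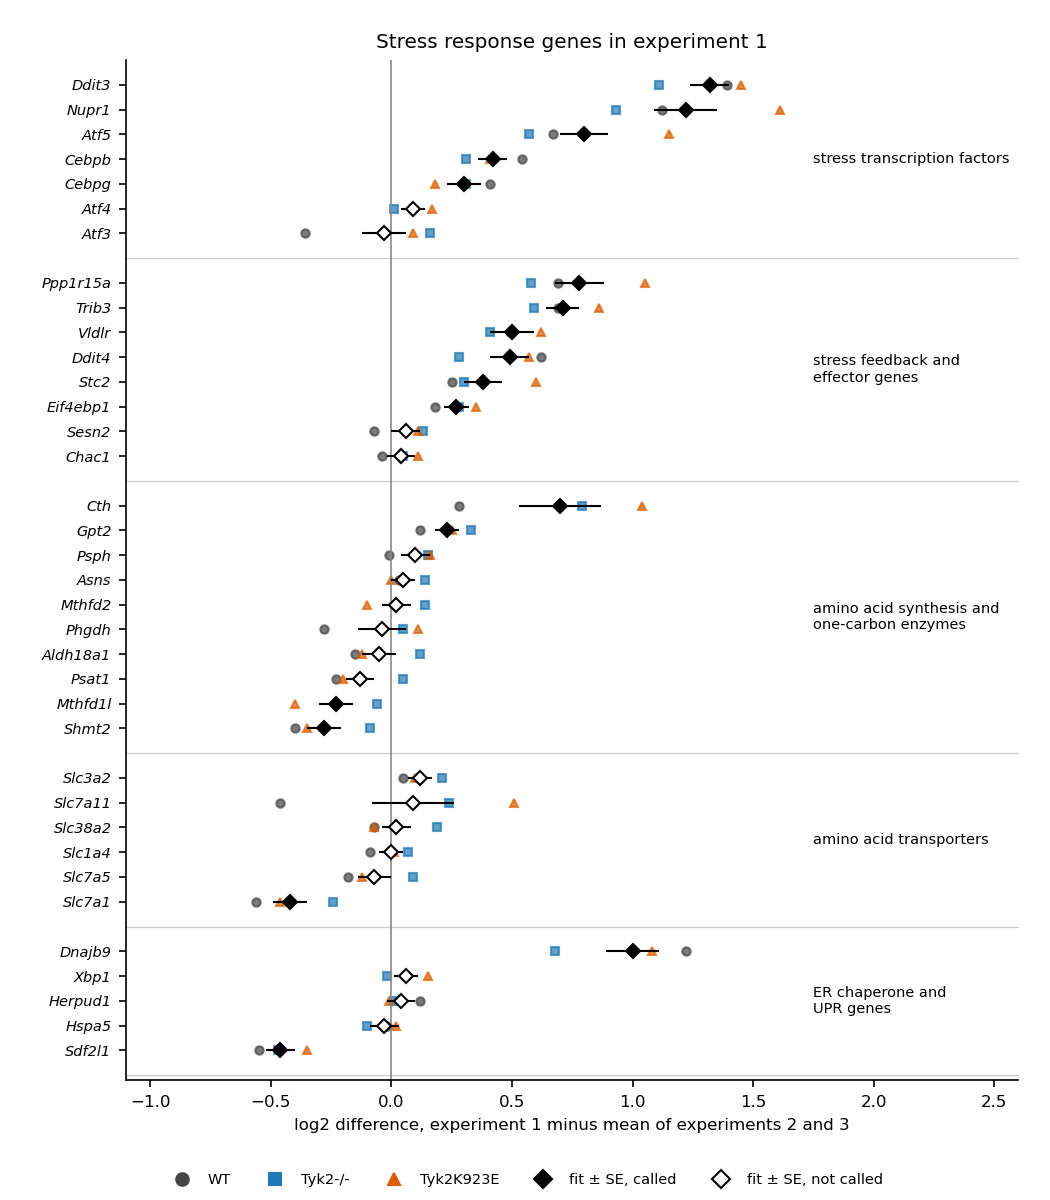
Log2 difference of experiment 1 from the mean of experiments 2 and 3 for the 36 measured genes, by group. Small symbols are the differences within each genotype, diamonds the limma estimate with its SE, filled where the adjusted p was under 0.05. The filled diamonds of the upper 2 groups all lie right of 0, from 0.27 for Eif4ebp1 to 1.32 for Ddit3, the enzymes and the ER genes have filled diamonds on both sides, and the transporters have 1, Slc7a1 at -0.42.

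Among the stress transcription factors, 5 of 7 rose in experiment 1 and none fell, with a median difference of 0.42. Over all genes tested, 16.2% were called higher and 19.9% lower. Ddit3 encodes CHOP, a factor that couples lasting stress to cell death. Its level in experiments 1, 2 and 3 was 9.21, 7.78 and 7.86 in WT, 8.57, 7.49 and 7.43 in Tyk2-/-, and 9.12, 7.75 and 7.6 in Tyk2K923E. Every array of experiment 1 lay above every other array, and within experiment 1 the Tyk2-/- array was the lowest. The means were 8.97 ± 0.35 (SD, n = 3) and 7.65 ± 0.17 (SD, n = 6), a difference of 1.32 (SE 0.08, 2.49-fold, limma adjusted p = 8.05e-05). The difference was present in each genotype, at 1.39, 1.11 and 1.45 in WT, Tyk2-/- and Tyk2K923E.

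Nupr1 encodes a small stress-induced chromatin protein. WT arrays read 9.03, 7.91 and 7.92, Tyk2-/- arrays 8.74, 8.02 and 7.61, and Tyk2K923E arrays 9.55, 7.86 and 8.02. The 3 arrays of experiment 1 were again above the others, Tyk2K923E being the highest. The difference was 1.22 (SE 0.13, 2.32-fold, limma adjusted p = 4.37e-04).

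Atf5, a relative of ATF4 that is also under translational control, read 7.51, 6.87 and 6.8 in WT, 7.1, 6.56 and 6.49 in Tyk2-/-, and 7.78, 6.68 and 6.57 in Tyk2K923E. Experiment 1 stood above the rest by 0.8 (SE 0.1, 1.74-fold, limma adjusted p = 7.23e-04), with no overlap of arrays. Cebpb and Cebpg encode C/EBP factors, CEBPG being a dimer partner of ATF4. Cebpb measured 7.02 ± 0.14 (SD, n = 3) in experiment 1 and 6.6 ± 0.08 (SD, n = 6) in the other experiments (difference 0.42, limma adjusted p = 0.00113). Cebpg measured 8.85 ± 0.07 (SD, n = 3) and 8.55 ± 0.1 (SD, n = 6), and its difference of 0.3 (limma adjusted p = 0.01) was not called without the WT array of experiment 1 (adjusted p = 0.0621). 

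Atf4, the central factor of the pathway, read 10.25, 10.13 and 10.19 in WT, 10.2, 10.19 and 10.19 in Tyk2-/-, and 10.36, 10.14 and 10.24 in Tyk2K923E. The whole range over 9 arrays was 0.23, and the difference of 0.09 (SE 0.05, limma adjusted p = 0.239) was not called. An mRNA level does not show how much ATF4 protein was made. Atf3, a stress-induced repressor, measured 6.79 ± 0.25 (SD, n = 3) in experiment 1 and 6.82 ± 0.08 (SD, n = 6) in the others. Its WT difference was -0.36 and its differences in the mutants were 0.16 and 0.09.

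**Figure D2:**
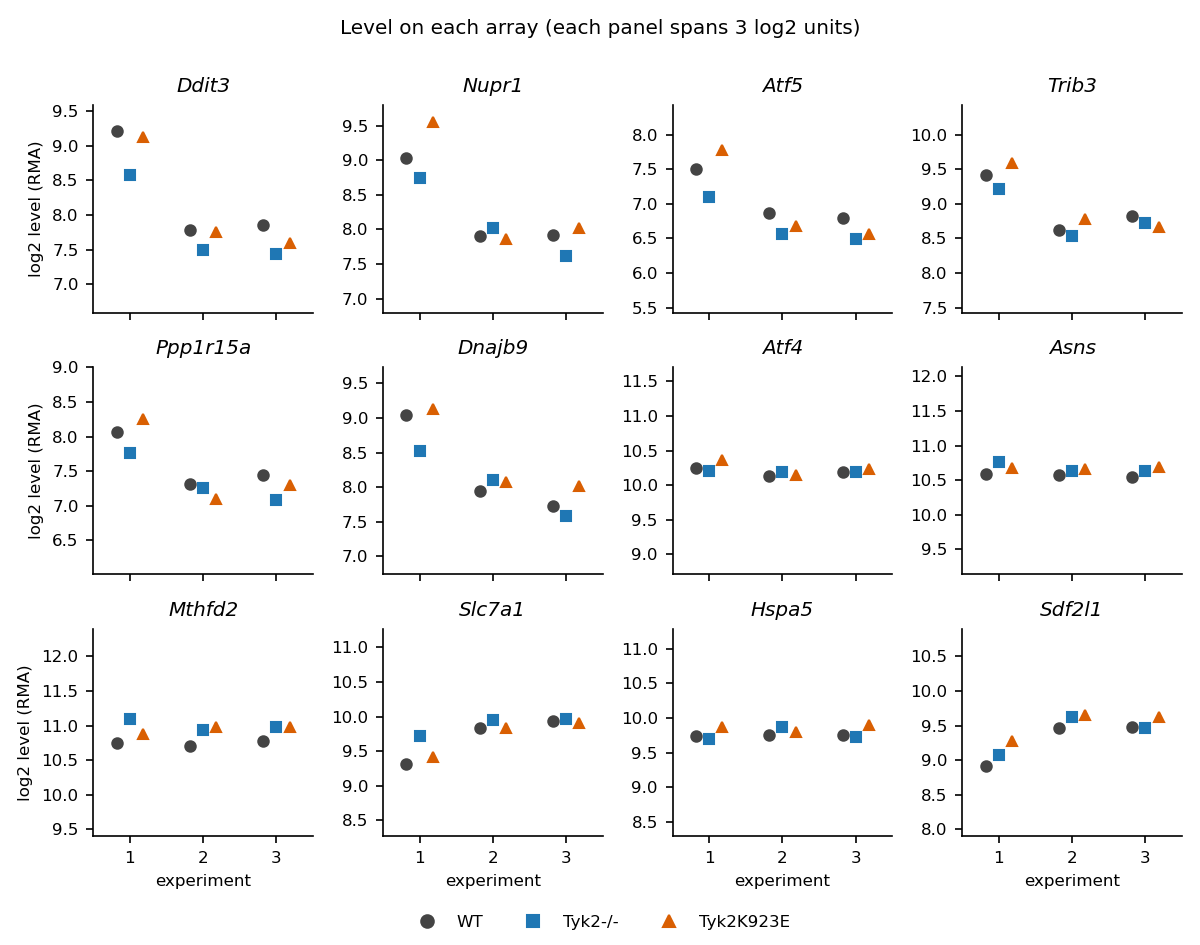
Log2 RMA level of 12 genes on each of the 9 arrays, by experiment (horizontal axis) and genotype (symbol), each panel spanning 3 log2 units around the gene's own middle. Ddit3, Nupr1, Atf5, Trib3, Ppp1r15a and Dnajb9 are higher in experiment 1 in all 3 genotypes and Slc7a1 and Sdf2l1 lower, and Atf4, Asns, Mthfd2 and Hspa5 vary little at this scale.

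Of the 8 feedback and effector genes, 6 rose in experiment 1 and none fell, with a median difference of 0.44. The shares over all genes tested were 16.2% called higher and 19.9% called lower. Ppp1r15a encodes GADD34, which brings a phosphatase to eIF2 and so restores translation. It read 8.07, 7.31 and 7.44 in WT, 7.76, 7.26 and 7.09 in Tyk2-/-, and 8.26, 7.1 and 7.3 in Tyk2K923E, the experiment 1 array being the highest in each genotype. The difference was 0.78 (SE 0.1, 1.71-fold, limma adjusted p = 7.66e-04).

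Trib3, a pseudokinase that restrains ATF4 and CHOP, read 9.42, 8.62 and 8.83 in WT, 9.22, 8.54 and 8.72 in Tyk2-/-, and 9.59, 8.78 and 8.67 in Tyk2K923E. Here too the groups did not overlap, and the difference was 0.71 (SE 0.07, 1.64-fold, limma adjusted p = 3.65e-04). Ddit4 encodes REDD1, an inhibitor of mTORC1, and it differed by 0.49 (SE 0.08, adjusted p = 0.00199), from 9.75 to 10.07 in experiment 1 against 9.21 to 9.59 elsewhere. Eif4ebp1 encodes a translation repressor that binds eIF4E, and it differed by 0.27 (SE 0.05, adjusted p = 0.00577).

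Vldlr, a lipoprotein receptor and known ATF4 target, differed by 0.5 (SE 0.09, limma adjusted p = 0.00355). Stc2, a secreted glycoprotein induced by ER stress, differed by 0.38 (SE 0.08, limma adjusted p = 0.00533). Chac1 and Sesn2 were the effectors that were not called. Chac1 encodes a glutathione-degrading enzyme and is often used as an ATF4 readout. It read 8.05, 8.06 and 8.12 in WT, 8.19, 8.16 and 8.12 in Tyk2-/-, and 8.38, 8.38 and 8.15 in Tyk2K923E, with a difference of 0.04. Sesn2, a leucine sensor that restrains mTORC1, differed by 0.06.

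The ATF4-type amino acid genes showed no common direction in experiment 1. Of 16 measured, 2 rose, 3 fell and 11 were not called, and the median difference was 0.01 against 0.00 over all genes tested. These counts were close to the shares over all genes tested, 16.2% called higher and 19.9% called lower. Asparagine synthetase (Asns), the standard ATF4 target among enzymes, read 10.59, 10.57 and 10.55 in WT, 10.77, 10.64 and 10.63 in Tyk2-/-, and 10.68, 10.67 and 10.69 in Tyk2K923E. The difference was 0.05 (SE 0.05, limma adjusted p = 0.444). Mthfd2, the mitochondrial folate enzyme, differed by 0.02 (SE 0.06, limma adjusted p = 0.856).

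The enzymes that rose were Cth, which makes cysteine by transsulfuration, and Gpt2, a mitochondrial alanine aminotransferase. Cth read 8.32, 8.24 and 7.85 in WT, 8.74, 8.41 and 7.49 in Tyk2-/-, and 9.33, 8.28 and 8.3 in Tyk2K923E. Its groups overlapped, the WT array of experiment 1 lying within the range of the other experiments. The difference was 0.7 (SE 0.17, limma adjusted p = 0.0133), and it was not called without the Tyk2K923E or the Tyk2-/- array of experiment 1 or without experiment 3 (0.49 to 0.92 over all left-out fits). Gpt2 differed by 0.23 (SE 0.05, limma adjusted p = 0.0117) and was not called without the Tyk2K923E array of experiment 1 or without experiment 3.

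Both of the enzymes that fell belong to mitochondrial folate metabolism, as does Mthfd2, which was not called (difference 0.02). Shmt2, which splits serine into glycine and a folate-bound carbon unit, read 11.3, 11.68 and 11.72 in WT, 11.58, 11.66 and 11.68 in Tyk2-/-, and 11.32, 11.7 and 11.64 in Tyk2K923E. Mthfd1l, which releases formate from that route, read 9.68, 9.89 and 9.93 in WT, 9.89, 9.91 and 10.0 in Tyk2-/-, and 9.57, 9.97 and 9.97 in Tyk2K923E. In both genes the Tyk2-/- array of experiment 1 lay close to the other experiments while the WT and Tyk2K923E arrays were lower.

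The fitted differences were -0.28 for Shmt2 (SE 0.07, limma adjusted p = 0.0138) and -0.23 for Mthfd1l (SE 0.07, limma adjusted p = 0.0297). Shmt2 was not called without the WT or the Tyk2K923E array of experiment 1, nor without experiment 2 or experiment 3. The Mthfd1l call stood in 2 of 11 fits that left out an array or an experiment, those without the Tyk2-/- array of experiment 1 or of experiment 2, its value ranged from -0.31 to -0.15, and the call was also lost without the filter. The serine synthesis enzymes Phgdh, Psat1 and Psph differed by -0.04, -0.13 and 0.10, and Aldh18a1, the first enzyme of proline synthesis, by -0.05. Of these only Psat1 and Psph were called in any alternative, Psat1 without the Tyk2-/- array of experiment 1 and Psph after quantile normalisation.

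Of the 6 transporters, only Slc7a1 was called. It imports arginine and lysine, and read 9.32, 9.83 and 9.94 in WT, 9.72, 9.95 and 9.97 in Tyk2-/-, and 9.41, 9.83 and 9.91 in Tyk2K923E. All arrays of experiment 1 lay below the others, and the level fell by 0.42 on the log2 scale (SE 0.07, 1.34-fold, limma adjusted p = 0.00203). Slc7a5 and Slc3a2 form the large neutral amino acid exchanger that T and NK cells raise on activation, and they differed by -0.07 and 0.12. Slc38a2 and Slc1a4, carriers of small neutral amino acids, differed by 0.02 and 0.00.

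Slc7a11, the cystine importer, was the least steady transporter across genotypes. It read 5.73, 6.3 and 6.08 in WT, 6.64, 6.69 and 6.12 in Tyk2-/-, and 6.87, 6.36 and 6.36 in Tyk2K923E. The difference of experiment 1 was -0.46 in WT, 0.24 in Tyk2-/- and 0.51 in Tyk2K923E, so the fitted 0.09 (SE 0.17) averages opposite signs. The second probe set of this gene read 3.27 to 4.1, below the array median, and was not used.

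Of the 5 ER genes, 1 rose, 1 fell and 3 were not called in experiment 1, with a median difference of 0.04. Over all genes tested the shares were similar, 16.2% called higher and 19.9% called lower. Dnajb9 encodes ERdj4, a BiP cochaperone and a target of spliced XBP1. It read 9.05, 7.94 and 7.73 in WT, 8.52, 8.1 and 7.58 in Tyk2-/-, and 9.13, 8.08 and 8.02 in Tyk2K923E. The arrays of experiment 1 were all higher, the Tyk2-/- array least so. The difference was 1.00 (SE 0.11, 1.99-fold, limma adjusted p = 4.39e-04).

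Sdf2l1, a partner of ER cochaperones, read 8.92, 9.46 and 9.48 in WT, 9.07, 9.63 and 9.46 in Tyk2-/-, and 9.28, 9.65 and 9.62 in Tyk2K923E. It fell by 0.46 on the log2 scale (SE 0.06, 1.37-fold, limma adjusted p = 8.45e-04), opposite to Dnajb9. Hspa5 encodes BiP, the main ER chaperone, and read 9.74, 9.76 and 9.76 in WT, 9.7, 9.87 and 9.73 in Tyk2-/-, and 9.87, 9.8 and 9.9 in Tyk2K923E. Its difference was -0.03 (SE 0.06), with a size of 0.02 and the opposite sign after quantile normalisation.

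Herpud1, a scaffold of ER-associated degradation, read 10.76, 10.58 and 10.69 in WT, 10.66, 10.55 and 10.74 in Tyk2-/-, and 10.64, 10.69 and 10.61 in Tyk2K923E. Xbp1 read 10.28, 10.19 and 10.24 in WT, 10.21, 10.25 and 10.21 in Tyk2-/-, and 10.29, 10.12 and 10.15 in Tyk2K923E. Neither separated experiment 1 from the others, with differences of 0.04 and 0.06. The values do not separate spliced from unspliced Xbp1.

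Counted without a test, all 3 arrays of experiment 1 lay above all 6 others for 14 of the 36 genes and below them for 4. Over all genes tested the shares were 14.5% and 18.7%. By group, the genes above were 11 of 15 factors and effectors, 2 of 16 amino acid genes (Gpt2 and Slc3a2) and 1 of 5 ER genes.

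Promoters of genes that rose and of genes that were not called are set side by side here, because the pathway is known for a shared element. RefSeq windows of GRCm38.p6, from 250 bases before to 50 after the start, held 34 of the 37 genes. The C/EBP-ATF response element was searched as TGATGNAA on both strands and was found in 10 of the 34 genes, namely Atf3, Nupr1, Trib3, Chac1, Vldlr, Asns, Pycr1, Slc7a11, Slc1a4 and Herpud1. It was found in 2.88% of the 9879 tested genes with a window and in 3.97% of all 32851 windows of that length. The list holds known ATF4 targets, such as Asns and Vldlr, so its higher share follows in part from how it was chosen and is not a test. The stretches below run 5′ to 3′ on the gene's strand with the match in capitals, first 2 genes that rose in experiment 1 and then 3 that were not called.
Nupr1: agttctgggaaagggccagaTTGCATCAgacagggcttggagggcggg
Vldlr: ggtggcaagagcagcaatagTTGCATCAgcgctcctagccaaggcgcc
Chac1: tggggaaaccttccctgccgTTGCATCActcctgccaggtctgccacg
Asns: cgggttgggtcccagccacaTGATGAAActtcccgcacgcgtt
Slc7a11: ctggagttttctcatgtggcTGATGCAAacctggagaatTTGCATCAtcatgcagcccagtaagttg

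These stretches lie at chr7:126625553-126625600 (minus strand) for Nupr1, chr19:27216800-27216847 (plus) for Vldlr, chr2:119351029-119351076 (plus) for Chac1, chr6:7693210-7693252 (minus) for Asns and chr3:50443633-50443699 (minus) for Slc7a11. Nupr1, Vldlr and Chac1 carried the same 8 letters, TTGCATCA, which are TGATGCAA read on the other strand, and Slc7a11 carried them in both orientations. Of the 9 measured genes with a match, 3 rose in experiment 1 (Nupr1, Trib3 and Vldlr) and 6 were not called. Of the 24 without one, 9 rose, among them Ddit3, Atf5 and Ppp1r15a, 4 fell and 11 were not called. These counts stand beside 16.2% called higher and 19.9% called lower over all genes tested. A match is a description of letters in this window and not a bound site.

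Each other motif searched was found in at most 1 of the 34 genes, too few to set against its share over tested genes. The ER stress response element, searched as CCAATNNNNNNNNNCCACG on both strands, was found in Hspa5 alone of the 34 genes and in 0.162% of tested genes with a window. The cAMP response element, TGACGTCA, was found in Ppp1r15a alone, against 3.49% of tested genes with a window, and TGACGTGG, the core of the unfolded protein response element, in none, against 1.09%. They are shown for the chaperone that was not called and for the phosphatase subunit that rose.
Hspa5: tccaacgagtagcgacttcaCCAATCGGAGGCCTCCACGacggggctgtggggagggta
Ppp1r15a: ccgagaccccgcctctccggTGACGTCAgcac

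The Hspa5 stretch is chr2:34772005-34772063 (plus strand) and the Ppp1r15a stretch chr7:45526269-45526300 (minus strand).

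As the same measure between the remaining experiments, experiment 2 was compared with experiment 3. None of the 36 genes was called by limma, none had an unadjusted p under 0.05, and 0% of all genes tested were called (715 had an unadjusted p under 0.05). The median difference of the amino acid genes was 0.02. The widest difference among the genes with the smallest p was that of Cth, at 0.43, and Ddit4 differed by -0.20 (adjusted p = 0.88).

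Within genotypes, the step of experiment 1 in the 15 factors and effectors had a median of 0.49 in WT (12 of 15 positive), 0.31 in Tyk2-/- (15 of 15) and 0.57 in Tyk2K923E (15 of 15). For the 16 amino acid genes the medians were -0.12 in WT (5 positive), 0.13 in Tyk2-/- (13 positive) and -0.03 in Tyk2K923E (7 positive). The difference between genotypes in this step was not tested.

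**Figure D3:**
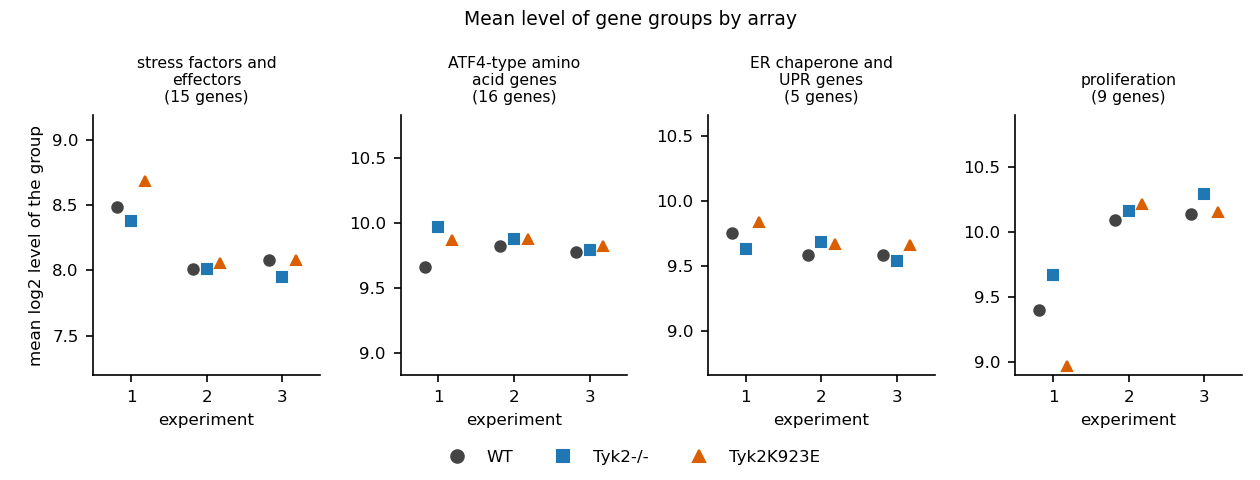
Mean log2 RMA level of 15 stress factors and effectors, 16 ATF4-type amino acid genes, 5 ER genes and 9 proliferation markers on each array, by experiment and genotype. In experiment 1 the factors and effectors are at 8.38 to 8.69 against 7.95 to 8.08 in the others, the amino acid genes at 9.66 to 9.97 against 9.78 to 9.88, and the proliferation markers at 8.97 to 9.67 against 10.09 to 10.29.

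Markers of cell cycling moved with this contrast, in which 19.9% of all genes tested were called lower and 16.2% higher. Those shares also apply to the other marker counts below. All 9 proliferation markers tested were called lower in experiment 1, with a median of -0.91, and Mki67 fell by 1.30 (limma adjusted p = 7.08e-04). Their mean in experiment 1 was 8.97 in Tyk2K923E, 9.40 in WT and 9.67 in Tyk2-/-, the reverse order of the factors and effectors (8.69, 8.49 and 8.38). Of the monocyte, macrophage and dendritic cell markers, Cd68 (0.50), Cd14 (0.29) and Cst3 (0.17) were called higher, while Adgre1, Flt3, Xcr1 and Siglech lay below the array median on every array. The list's mean was 6.0 to 6.07 in experiment 1 and 5.88 to 6.01 in the others. Among NK markers 9 of 10 had a negative difference, Ncr1 (-0.46) and Nkg7 (-0.18) being called lower, and Klrb1c (0.37) was called higher. The T-cell markers Lat (-0.25) and Cd28 (0.22) and, from the B-cell and plasma-cell list, Prdm1 (0.48) were also called. The part of these shifts in the stress genes' differences was not tested.

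The rest of the pathway was read from lists of genes outside the 37. Their counts stand beside 16.2% called higher and 19.9% called lower in experiment 1 over all genes tested. Of 18 tested eIF2 kinases, eIF2 and eIF2B subunits and sensors, 1 rose and 6 fell in experiment 1, with a median of -0.11. Ern1, which encodes the sensor IRE1, rose by 0.36 (limma adjusted p = 0.00507). Eif2b3, a subunit of the exchange factor that recharges eIF2, fell by 0.62 (limma adjusted p = 2.54e-04), and Eif2ak2, the kinase PKR, fell by 0.56.

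Of 23 ER folding and ER-associated degradation genes, 7 rose and 6 fell, with a median of -0.01. The shares over all genes tested, 16.2% higher and 19.9% lower, apply to this and the following counts too. Ero1a, which reoxidises protein disulfide isomerase, rose by 0.53, P4hb, that isomerase, by 0.40 and Sel1l, of the degradation complex, by 0.45. Creld2, an ER stress-induced isomerase, fell by 0.35. Of 12 tested ATF4-linked aminoacyl-tRNA synthetase genes 1 rose and 1 fell (Sars at 0.41, Lars at -0.37), and of 7 other synthetases none rose and 4 fell. Of 9 mitochondrial chaperones and proteases 1 rose (Lonp1, 0.35) and 1 fell (Hspd1, -0.51).

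The comparison the study was built on is that of the genotypes, paired here by experiment. None of the 36 genes was called between Tyk2-/- and WT, between Tyk2K923E and WT, or between the mutants. Over all genes tested limma called 0.0875%, 0.0875% and 0.0239% in these comparisons, 11, 11 and 3 genes of 12578. At an unadjusted p under 0.05 there were 6, 7 and 6 of the 36 genes, against 1142, 1258 and 1218 of all genes. Without pairing no stress gene was called either, and all genes gave 4, 1 and 3 calls. Both mutants were set against the same WT arrays, so a low or high WT array enters both differences.

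**Figure D4:**
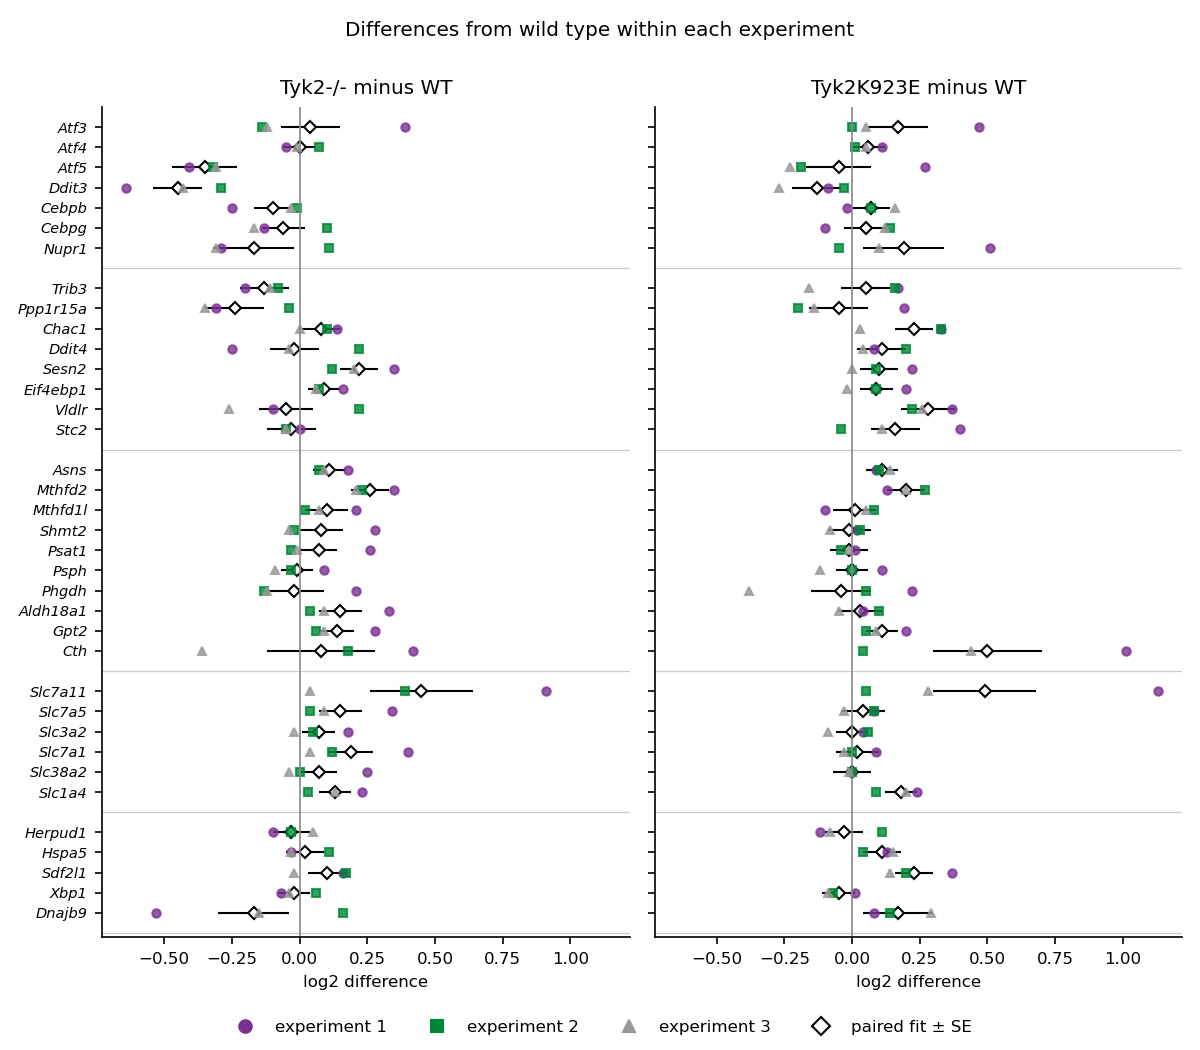
Log2 difference of Tyk2-/- (left) and Tyk2K923E (right) from the WT array of the same experiment, for 36 genes in the order of the groups. Small symbols are single experiments and diamonds the paired limma estimate with its SE, none called. For Slc7a11 the points of experiment 1 lie at 0.91 and 1.13 and those of experiment 3 at 0.04 and 0.28.

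Between Tyk2-/- and WT the smallest p belonged to Ddit3. The Tyk2-/- array was lower in every experiment, with differences of -0.64, -0.29 and -0.43. The paired estimate was -0.45 (SE 0.09, 1.37-fold, limma adjusted p = 0.222, from 0.121 to 1 over the alternatives). Atf5 was also lower in each experiment (-0.41, -0.32 and -0.31, estimate -0.35, limma adjusted p = 0.45). The 15 factors and effectors had a median of -0.05, 5 positive and 10 negative. By experiment the median was -0.13, 0.07 and -0.11, so the sign changed in experiment 2, where 8 of 15 were positive. Sesn2 was positive in each experiment, at 0.35, 0.12 and 0.2 (estimate 0.22, limma adjusted p = 0.436). In 5 of the 15 Tyk2-/- was the lower in all 3 experiments, against 13.6% of all genes tested. In 2 it was the higher in all 3, against 16.5%.

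Amino acid genes leaned towards higher levels in Tyk2-/-, by a small amount. Their median was 0.11 with 14 of 16 positive, against 51.9% positive over all genes tested. Mthfd2 read 10.75, 10.71 and 10.77 in WT, 11.1, 10.94 and 10.98 in Tyk2-/-, and 10.88, 10.98 and 10.98 in Tyk2K923E, so both mutants were above WT in each experiment. Its estimate was 0.26 for Tyk2-/- (SE 0.07, limma adjusted p = 0.328, from 0.176 to 1 over the alternatives) and 0.20 for Tyk2K923E (limma adjusted p = 0.358). Slc7a11 had an estimate of 0.45 (SE 0.19, limma adjusted p = 0.545), with 0.91, 0.39 and 0.04 in experiments 1 to 3. It ranged from 0.17 to 0.65 with arrays or experiments left out. Its WT array of experiment 1 read 5.73, not far above the array medians of 5.42 to 5.48. Slc7a1 had an estimate of 0.19 (limma adjusted p = 0.526).

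In size that lean came mostly from experiment 1. There all 16 amino acid genes were higher in Tyk2-/- than in WT, with a median of 0.27, while 12 of 16 were higher in experiment 2 (median 0.04) and 9 of 16 in experiment 3 (median 0.04). With experiment 1 left out the median was 0.05, 10 of 16 positive. In direction, 9 of 16 were higher in Tyk2-/- in all 3 experiments, against 16.5% of all genes tested, and 0 were lower in all 3. In experiment 1 the WT array was the lowest of the 3 for 14 of 16 amino acid genes, and Tyk2K923E was also above WT for 14 of 16 there (median 0.09). The Tyk2-/- array was the highest for 11 of 16 amino acid genes and the lowest for 10 of 15 factors and effectors. All 9 proliferation markers had a positive estimate between Tyk2-/- and WT (median 0.13, none called), as most amino acid genes did. Between Tyk2K923E and WT 8 of 9 were negative (median -0.09), while 11 of 16 amino acid genes were positive. In experiment 1 against the others the medians were -0.91 for proliferation markers and 0.01 for amino acid genes. The part of proliferation was not tested.

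Between Tyk2K923E and WT the medians were 0.03 for amino acid genes (11 of 16 positive), 0.09 for factors and effectors (12 of 15 positive) and 0.11 for ER genes (3 of 5 positive), against 50.9% positive over all genes tested. The ER median was 0.16 without the Tyk2K923E array of experiment 2. Sdf2l1 had the smallest p, with differences of 0.37, 0.2 and 0.14 and an estimate of 0.23 (SE 0.07, limma adjusted p = 0.283). Chac1 had 0.33, 0.33 and 0.03 (estimate 0.23, limma adjusted p = 0.33), and Vldlr 0.37, 0.22 and 0.26 (estimate 0.28, limma adjusted p = 0.407).

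Cth and Slc7a11 had the widest estimates, 0.50 and 0.49 (limma adjusted p = 0.441 and 0.443). In experiments 1, 2 and 3 Cth differed by 1.01, 0.04 and 0.44, and Slc7a11 by 1.13, 0.05 and 0.28, so experiment 1 was the widest for both. With arrays or experiments left out, Cth ranged from 0.24 to 0.75 and Slc7a11 from 0.16 to 0.71. Slc1a4 had an estimate of 0.18 (limma adjusted p = 0.372), positive in each experiment.

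Between the mutants the factors and effectors had a median of -0.17, with Tyk2-/- below Tyk2K923E for 13 of 15. Tyk2-/- was the lower in all 3 experiments for 7 of 15 and the higher for 1, against 14.3% and 14.2% of all genes tested. Ddit3 differed by -0.55, -0.26 and -0.16 (estimate -0.32, limma adjusted p = 0.452). Vldlr (-0.33), Atf5 (-0.30), Cebpb (-0.17) and Nupr1 (-0.36), and Dnajb9 (-0.34) of the ER genes, had limma adjusted p-values of 0.452 to 0.515. In experiment 2 alone Nupr1 differed by 0.15, Dnajb9 by 0.02 and Vldlr by 0.00. With arrays or experiments left out, Nupr1 ranged from -0.61 (without experiment 2) to -0.13 (without experiment 1), Atf5 from -0.40 (without experiment 3) to -0.10 (without experiment 1) and Dnajb9 from -0.52 (without experiment 2) to -0.19 (without the Tyk2-/- array of experiment 1). By experiment the group's median was -0.32, -0.03 and -0.16, so it was near 0 in experiment 2, and it was -0.10 with experiment 1 left out. The amino acid genes had a median of 0.06 and the ER genes of -0.09.

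No gene of the other pathway lists was called between genotypes. Of the 23 ER folding and degradation genes, 20 had a positive estimate between Tyk2K923E and WT, with a median of 0.08 and 5 at an unadjusted p under 0.05. Pdia6 had 0.26 (limma adjusted p = 0.191) and Creld2 0.28 (adjusted p = 0.211). Between Tyk2-/- and WT 10 of 23 were positive. All 12 ATF4-linked tRNA synthetase genes had a positive estimate for Tyk2K923E (median 0.08) and 11 of 12 for Tyk2-/- (median 0.12). Of the synthetase genes that are not ATF4-linked, 6 of 7 were positive for Tyk2K923E (median 0.08) and 7 of 7 for Tyk2-/- (median 0.08), and mitochondrial chaperones and proteases had 8 of 9 positive in each comparison. T-cell markers had a median of -0.36 between Tyk2K923E and WT with none of 9 called, and Itga2, the NK marker that DX5 binds, was called lower at -0.71 (limma adjusted p = 0.0375). The tested basophil and mast cell markers, Mcpt8 and Cpa3, differed by 0.77 and 0.91 between Tyk2K923E and WT (limma adjusted p = 0.0684 and 0.19) and by -0.28 and -0.93 between the mutants. The other 3 of 5, Fcer1a, Ms4a2 and Gata2, lay below the array median on every array, and the list's mean was 5.81 to 6.16 in Tyk2K923E, 5.7 to 5.87 in Tyk2-/- and 5.62 to 5.72 in WT. Their part in these estimates was not tested.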

How the data were processed

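Affymetrix arrays of 9 NK-cell cultures were used as the authors deposited them, as log2 values over 41345 probe sets; per the submitters' processing notes they came from RMA in Partek 6.6. Genome build and annotation version were not given in the sources used here. Per the labels' protocols, total RNA was labelled with WT PLUS chemistry. The platform annotation gave 1 symbol to 23521 probe sets, several to 1814 and none to 16010, and only the first were named. The brightest probe set stood for a gene, and genes at or above the array median on at least 3 of 9 arrays were tested.

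Genes were fitted with limma 3.58.1 (R 4.3.3; lmFit, eBayes; additive experiment and genotype terms, 4 residual degrees of freedom), with Benjamini-Hochberg adjustment over 12578 genes and a threshold of 0.05. Experiment numbers pair the samples, because the labels give 3 independent experiments of 1 array per genotype. Deviations from genotype means correlated at 0.383 to 0.787 within experiments and at -0.71 to 0.559 between them. Centring on 3 arrays per genotype ties both ranges together, and experiment 1 stood apart on the leading axis. The correlations therefore do not test the pairing. SDs are over arrays, and the number of arrays limits the precision.

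In simulated data of 12578 genes, 66 or 67 were changed at each size (0.5, 1 and 2 log2 units). The Tyk2-/- comparison recovered 86.6% of changes of 0.5 log2 units and 100% of those of 1. The experiment 1 comparison, simulated without the real difference of experiment 1, recovered 98.5% and 100%. So many planted changes ease the adjusted threshold, so these shares do not give the recovery between genotypes in the data. There Ddit3, at -0.45 between Tyk2-/- and WT, had a limma adjusted p of 0.222. There were 17 and 11 false calls. They arose beside the planted changes, so the 17 cannot be set against the 11 genes called between Tyk2-/- and WT in the data. The genes and lists were chosen with earlier results of these data known. Genes named with values were those past the threshold in a comparison, or else the 6 with the smallest p, with key genes of both arms. Alternatives covered the pairing, filters, centring, quantile normalisation, prior and each array or experiment left out.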

Additional observations from a re-analysis of the deposited data

Results flagged for a closer look

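The 6 arrays of experiments 2 and 3 were examined gene by gene for 1 array far from the other 5. Chac1 read 8.38 on the Tyk2K923E array of experiment 2 against 8.06 to 8.16 on the others, and this gap took 0.69 of the whole range. Psat1 read 10.34 on the WT array of experiment 2 against 10.3 to 10.31, a gap of 0.728 of a narrow range. Chance marks about 1 in 20 such groups.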

How the results depend on the processing

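The counts of called stress genes between genotypes were 0 under every alternative run, including the fit without the replicate block, with a random block (correlation 0.45), other filters, centring and quantile normalisation. Without the block, the median of the amino acid genes between Tyk2-/- and WT was again 0.11. Pairing changed no call among the stress genes. Experiment 1 gave 14 to 18 called genes when arrays or experiments were left out, 17 without the filter, 19 after quantile normalisation and 18 otherwise. Of 1432 alternative values of 74 named differences, 1386 kept direction and side of the threshold, 17 kept direction but lost their call and 29 changed sign, 27 of them when arrays were left out. All sign changes were in uncalled differences.

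When arrays were left out, values ranged as follows. In the comparison of Tyk2-/- with WT, Herpud1 ranged from -0.08 to 0.01, Hspa5 from -0.05 to 0.05 and Xbp1 from -0.06 to 0.03. In Tyk2K923E against WT, Herpud1 ranged from -0.10 to 0.02 and Trib3 from -0.02 to 0.17. Between the mutants, Mthfd2 ranged from -0.02 to 0.11, Slc7a11 from -0.24 to 0.17 and Xbp1 from -0.01 to 0.09. In experiment 1, Slc7a11 ranged from -0.11 to 0.37 and Mthfd2 from -0.04 to 0.07, and Mthfd2 was at -0.01 with arrays centred on the median. Hspa5 was at 0.02 there after quantile normalisation. Between experiments 2 and 3, Ddit3 ranged from -0.04 to 0.10, Hspa5 from -0.05 to 0.07 and Xbp1 from -0.06 to 0.01. The median of the amino acid genes between experiments 2 and 3 ranged from -0.01 to 0.06, and that of the ER genes between Tyk2K923E and WT from 0.08 to 0.16. The cause of these shifts was not tested.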
